A study of Mus musculus with 18 samples.

Results

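The effect of inhibiting the kinase BTK on gene expression in B cells given no added antigen was measured by comparing 5 arrays from mice given the BTK inhibitor PF-303 and then PBS with 4 arrays from mice given vehicle and then PBS. These are 9 of the 18 arrays of the study, taken by their labelled treatment. All 18193 genes with a symbol on the array were considered, of which 11104 passed a filter on signal and were tested. Every sample was CD23+ B lymphocytes from the spleen of C57BL/6J mice, and CD23 is carried mainly by follicular B cells. The drug or vehicle was injected 2 h before the PBS, and cells were collected 2 h after it. Both groups differ from the stimulated groups of the study only in having had PBS in place of an antibody to IgD. Those stimulated groups, 4 arrays of anti-IgD after vehicle and 5 of anti-IgD after PF-303, serve here for the estimate of spread and for comparison. Neither the dose of PF-303 nor the age of the mice is given in the labels. Whether every sample is from its own mouse is not stated either, and the p-values then speak only of variation among these samples, which may be technical. PF-303 is known here as a BTK inhibitor only, and its selectivity was not measured.

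BTK is a cytoplasmic kinase that is recruited to the membrane when the B-cell receptor is engaged, where it activates phospholipase C gamma and so feeds calcium, protein kinase C, ERK and NF-kB signalling. Mature follicular B cells need a low level of signalling through their receptor to survive even when they meet no foreign antigen. Immediate early genes, such as those of the EGR, NR4A and FOS families, are transcribed within minutes of such signals without new protein synthesis, and their short-lived RNA makes them sensitive readouts of ongoing signalling.

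The arrays were comparable in scale, with differences in quality that touch the results. Each had been scaled by the authors to a common trimmed mean. The median signal of an array lay between 15.1 and 17.3 with vehicle and between 14.7 and 17.3 with PF-303. Vehicle replicates 3 and 4 and PF-303 replicates 3 and 4 had spike-in control signals above 2 times the median over the 18 arrays. Vehicle replicate 4 stood apart from the other 8 arrays: its 3′ to 5′ ratio of Gapdh, a measure of RNA integrity, was 0.29 on the log2 scale against -0.52 to -0.28 on the others. It lay at -28.4 on the first principal component, where the others lay between -9.00 and 11.4. That component held 27% of the variance and correlated at -0.882 with the log2 spike-in signal of the 9 arrays. The vehicle and PF-303 arrays overlapped on that component. Counts of calls, and the values of some genes, are therefore given also without vehicle replicate 4. Fcer2a, which encodes CD23, had signals of 2260.3 to 2979 with vehicle and 2192 to 2615 with PF-303. All 13 follicular B-cell markers that were tested lay above the filter level in both groups. Tested genes had already passed that filter. All 16 tested macrophage and monocyte markers and all 9 tested plasma cell markers lay above it too, so this does not tell cell types apart. Of 13 marker lists for B-cell subsets and other blood, stromal and myeloid cells, none had a gene called in either direction. The summed signal of the 7 tested of 13 neutrophil markers ranged from 179 to 621 with vehicle and from 109 to 339 with PF-303. That of the 7 tested of 12 erythroid markers ranged from 366 to 1531 and from 354 to 528. Their part in the results was not tested.

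PF-303 lowered a small set of genes in unstimulated B cells and raised very few. Of 11104 genes, 75 fell (0.675%) and 8 rose (0.072%) at an adjusted p under 0.05 in limma with Benjamini-Hochberg adjustment. In size, 10 of the falls and 0 of the rises were 2-fold or more. The falls ran from -2.32 for Egr1 to -0.31 for Mogs on the log2 scale, with 28 between -1 and -0.5 and 37 smaller than that. The rises ended at 0.69, whereas the median of all genes was 0.01 and the median standard error 0.12. Every PF-303 array was below every vehicle array for 72 of the 75 falling genes, against 2.42% of all genes. Likewise, every PF-303 array was above for 7 of the 8 rising genes, against 1.68% of all genes. At an unadjusted p under 0.05 the counts were 646 lower (5.82%) and 530 higher (4.77%). The labels give each sample a position code with a letter, of unstated meaning, and 3 letters hold arrays of both groups: within each of these 3, all 75 falling genes were lower with PF-303, which in part restates the call, since the genes were chosen on these arrays. The number of falling genes dropped to 42 without vehicle replicate 1, to 42 without PF-303 replicate 4 and to 49 without PF-303 replicate 1. It was 57 without vehicle replicate 4, of which 47 were among the 75. The rises were less stable, at 0 without vehicle replicate 4, 0 without PF-303 replicate 4, 3, 4, 5 and 5 without PF-303 replicates 1, 2, 3 and 5, 13 without vehicle replicate 3 and 16 without anti-IgD PF-303 replicate 1. With the position letter as a block 39 genes fell and 3 rose, and with the spread estimated from the 9 PBS arrays alone 27 fell and 1 rose. Under 33 other settings, 20 genes kept their call in every one and no called gene changed sign: Ahr, Alcam, Cd83, Egr1, Egr2, Egr3, Ephx1, Fos, Gnl3, H3f3b, Ipo4, Lrmp, Myc, Nfkbid, Nolc1, Nr4a1, Pigr, Rrp1b, Samsn1 and Timm8a1.

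**Figure D1:**
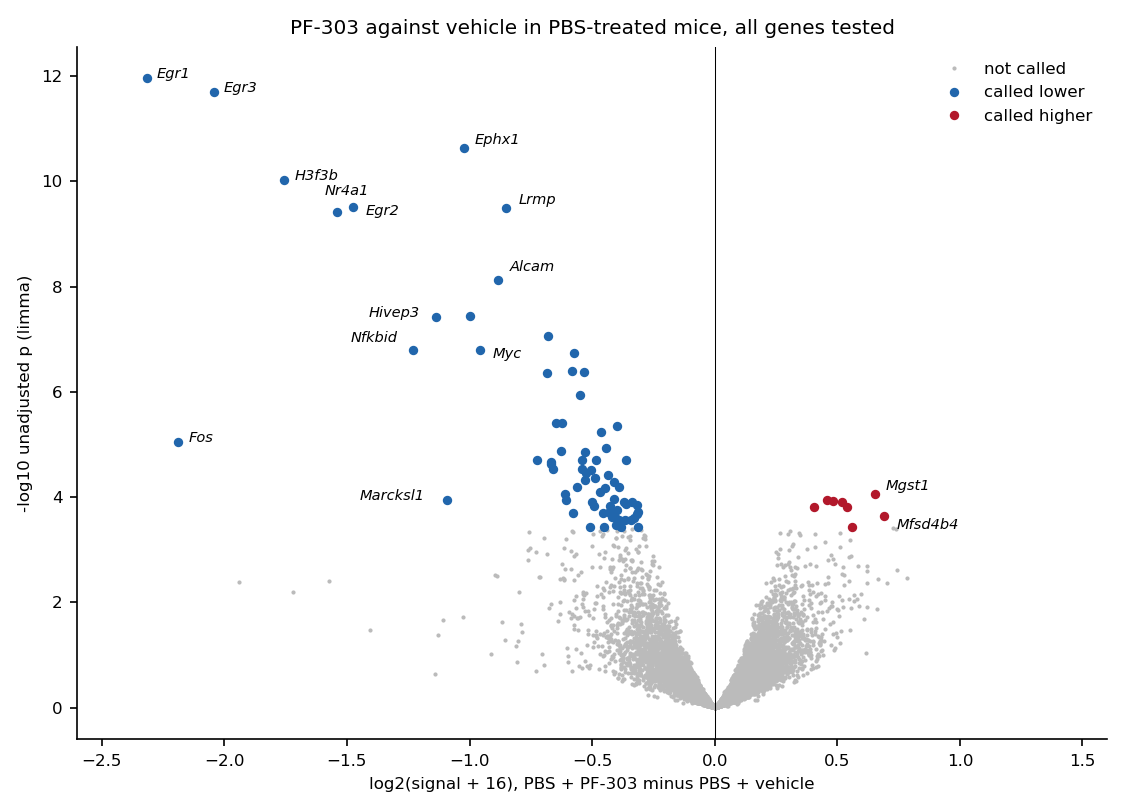
Difference between PBS with PF-303 and PBS with vehicle for each of 11104 genes, on the log2(signal + 16) scale (x axis), against the negative log10 of the unadjusted limma p (y axis). Each point is a gene, the 75 called lower are blue and the 8 called higher are red; the blue points reach -2.32 (Egr1) while no red point passes 0.69.

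Among the 6 largest falls were those of 3 members of the EGR family of zinc finger transcription factors, which ERK and calcium signals induce. Egr1 gave signals of 732, 672, 654 and 388 on vehicle replicates 1 to 4 and of 116, 115, 87.9, 88.5 and 132 on PF-303 replicates 1 to 5. The groups were well separated, with vehicle replicate 4 the lowest of its group. The mean with PF-303 was 17.6% of that with vehicle (-2.32 ± 0.16 (SE) on the log2 scale, adjusted p = 1.1e-08 in limma; -2.52 without vehicle replicate 4). Egr3 had 1090.4, 1078, 827 and 861 with vehicle and 217, 231, 194, 211 and 249.9 with PF-303, a fall by 2.04 ± 0.14 (adjusted p = 1.1e-08). Its second probe set, at 18.8 with vehicle, gave -0.26 and was not called. Signals of Egr2 were lower throughout, at 69.3, 84.5, 59.8 and 37.2 with vehicle and 10.8, 14.9, 9.48, 8.57 and 14.9 with PF-303, the latter all at or below the filter level of 15.2. They differed by -1.48 ± 0.13 (adjusted p = 6.0e-07). The size depends on the 16 added before the logarithm and was -2.30 with 1 and -0.73 with 64 added. Because the samples are bulk RNA, fewer cells that express a gene and less of its RNA per cell cannot be told apart in these values.

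Fos and Nr4a1 fell with the EGR genes. Fos, which encodes a subunit of the AP-1 transcription factor, had signals of 228, 264, 302.9 and 135 with vehicle and 35.6, 65.1, 43.7, 11.9 and 41.0 with PF-303, so that the highest PF-303 array was below the lowest vehicle array. It fell to 17% of the vehicle mean (-2.19 ± 0.38, adjusted p = 0.0043 in limma), with the widest error of the large falls. Nr4a1 encodes the orphan nuclear receptor NUR77, whose expression follows antigen-receptor signal strength in lymphocytes. Its signals were 223, 232, 162 and 162 with vehicle and 54.1, 67.9, 58.8, 46.5 and 52.3 with PF-303, 28.7% of the vehicle mean (-1.54 ± 0.14, adjusted p = 6.0e-07). Jun, the usual partner of FOS, fell by 0.50 ± 0.11 (adjusted p = 0.025), from a range of 185 to 269 to one of 141 to 172, and this call was lost without vehicle replicates 1 or 2 or PF-303 replicates 1, 2, 3 or 4 (-0.59 to -0.42). Egr1, Egr2, Egr3, Fos, Nr4a1 and Jun were the 6 members of a list of 32 immediate early genes, where 0 were called higher and the median was -0.21 against 0.01 for all genes. Over all genes 0.675% were called lower. The count was 10 without anti-IgD PF-303 replicate 1. At an unadjusted p under 0.05, 12 members were lower and 2 higher, where all genes gave 5.82% and 4.77%. Nr4a3, a second NR4A receptor, had 26.6 ± 4.81 with vehicle and 9.96 ± 7.40 with PF-303 (-0.76 ± 0.18, adjusted p = 0.053). Zfp36, which encodes an RNA-decay protein, had -0.76 ± 0.20 (adjusted p = 0.082). Junb had -0.62 ± 0.16 and Ier2 -0.29 ± 0.13. Klf4 (0.41 ± 0.14) and Klf6 (0.25 ± 0.09) were the 2 higher at the unadjusted threshold. None of these passed the adjusted test.

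**Figure D2:**
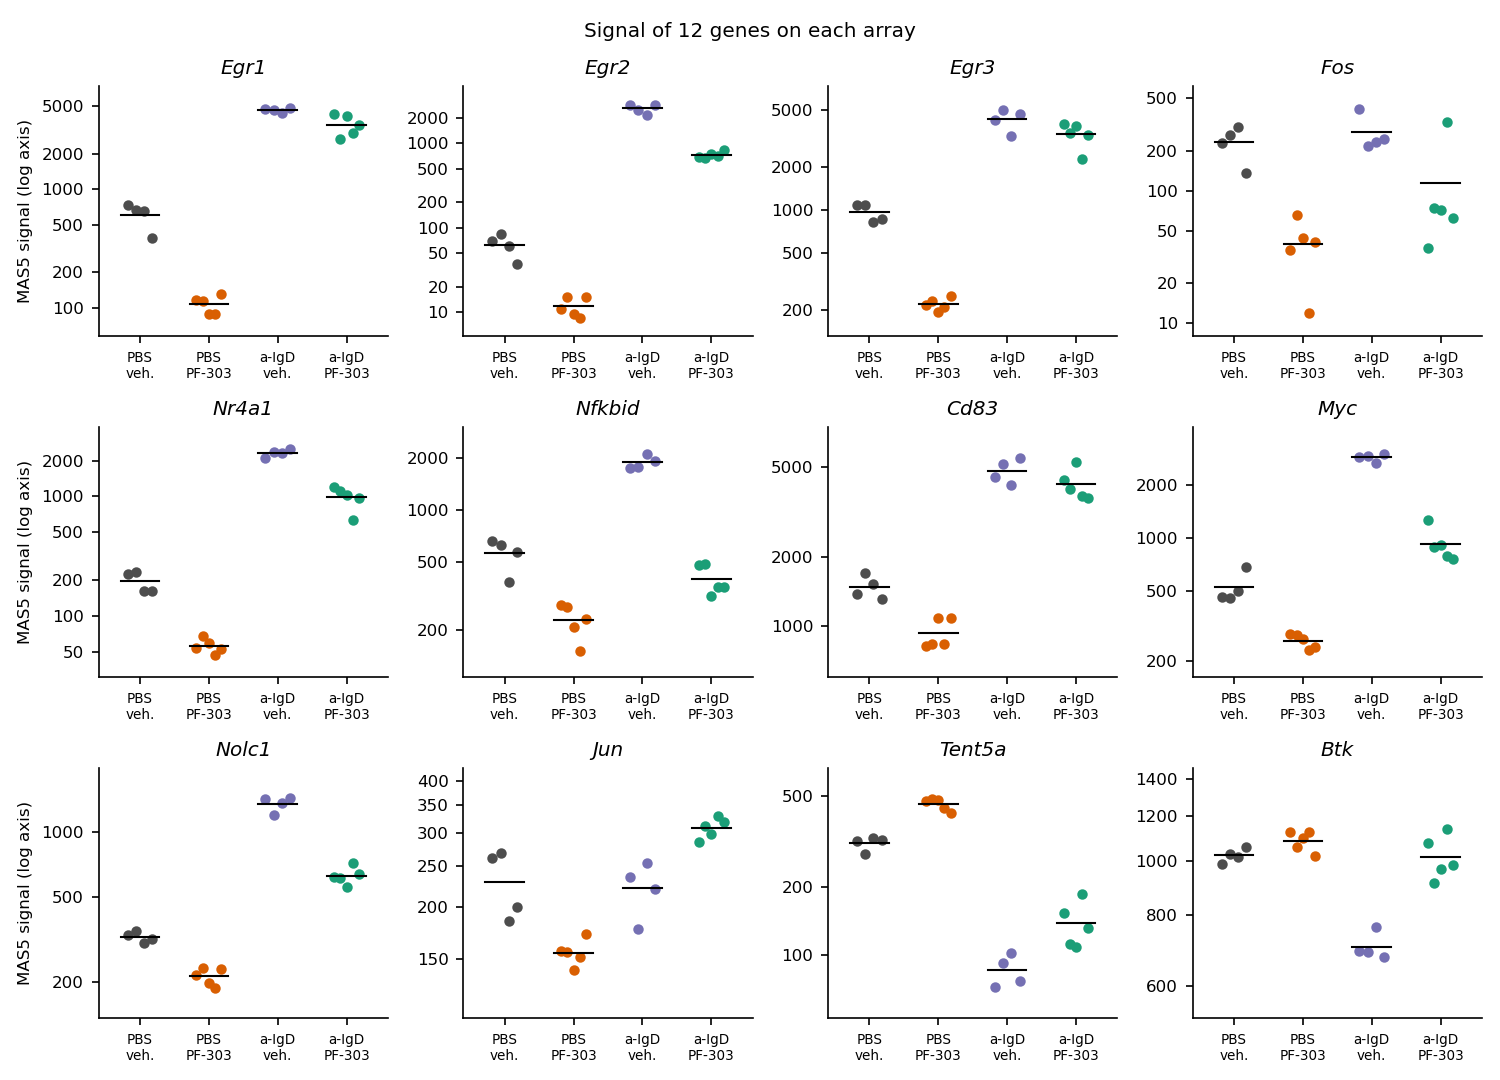
MAS5 signal on every array (y axis, log scale) for 12 genes in the 4 groups (x axis; veh., vehicle; a-IgD, anti-IgD); points are arrays (n = 4, 5, 4 and 5 from left to right) and bars are group means. The PF-303 points lie below the vehicle points in PBS for Egr1 to Jun and above them for Tent5a, while the groups overlap for Btk.

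Egr2 is shown with the letters of its start region because it was the 1 falling gene, of those searched, with a CArG box there. This box is the site of serum response factor through which ERK signals reach early genes. The window searched ran from 250 bases before to 50 bases after an annotated start (RefSeq, GRCm38.p6). Egr1, Egr3 and Myc were among the falling genes with no window and were not searched. Of the 75 falling genes 63 had such a window, so 1.59% held a CArG box, close to 1.49% of the 9017 tested genes with a window and 1.63% of all 32851 windows. Fos and Nr4a1 were among the 63 and held none in this window. The 2 different matches of Egr2, each 72 bases before a separate annotated start, are given 5′ to 3′ with the box in capitals and 10 bases on either side.
Egr2 (chr10:67537484-67537513, plus strand): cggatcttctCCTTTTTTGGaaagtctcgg
Egr2 (chr10:67537787-67537816, plus strand): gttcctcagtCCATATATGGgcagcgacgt
A match is a description of the letters and not of binding.

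Genes linked to NF-kB moved in part. Nfkbid, which encodes the atypical inhibitor IkBNS, had signals of 661, 621, 381 and 571 with vehicle and 278, 272, 209, 152 and 231 with PF-303. The groups did not overlap, and the mean fell to 40.9% (-1.23 ± 0.16, adjusted p = 1.4e-04 in limma). Cd83, a surface protein that stabilises MHC class II on activated B cells, had 1314 to 1709 with vehicle and 816 to 1086 with PF-303 (-0.67 ± 0.12, adjusted p = 0.0077). Rel, an NF-kB subunit induced in B cells by receptor signals, fell by 0.39 ± 0.09 (adjusted p = 0.039). Its groups overlapped (173 to 232 against 136 to 184), and the call was lost without vehicle replicates 2, 3 or 4 or PF-303 replicates 1, 2, 4 or 5 or anti-IgD vehicle replicates 1 or 5 or anti-IgD PF-303 replicates 2, 3 or 5 (-0.47 to -0.34). These were the 3 called of 25 tested NF-kB subunits, inhibitors and targets, with 0 higher, a list median of -0.10 and 9 lower at an unadjusted p under 0.05 (over all genes, 0.675% called lower and 5.82% lower at that p). The canonical inhibitor gene Nfkbia did not pass the test, with 4030.4 ± 528 (SD, n = 4) against 3958 ± 426 (n = 5) and -0.02 ± 0.11 (adjusted p = 0.97). Irf4, which encodes a transcription factor of plasma cell formation, went from a range of 405 to 615 to one of 308 to 407 with overlap (-0.42 ± 0.12, adjusted p = 0.1); it was called without vehicle replicate 2. Hivep3, which encodes a large zinc finger protein that binds kB-like sites, had 249.9, 247, 259 and 138 with vehicle and 76.9, 104, 86.5, 80.6 and 105 with PF-303 (-1.14 ± 0.14, adjusted p = 4.1e-05). Its 3 other probe sets, at mean signals of 5.54 to 21.6 with vehicle, gave -0.14 to 0.24 and were not called, and the mean of its probe sets gave -0.26, without a call.

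H3f3b, a gene of the replication-independent histone H3.3, had the fourth largest fall at the 1 probe set that names it alone. That probe set gave 802, 685, 590.4 and 548 with vehicle and 178, 203, 192, 155 and 181 with PF-303 (-1.76 ± 0.15, adjusted p = 2.6e-07 in limma). The annotation assigns 5 further probe sets to H3f3b together with H3f3a and other H3.3 copies, and these, at mean signals of 1782 to 7242 with vehicle, differed by -0.02 to 0.04 between the groups. The fall was thus seen at 1 probe set of lower signal beside brighter ones with values near 0, and which transcript that probe set reads is not known here. Of 8 tested genes of H3.3, H1 and other replication-independent histones, H3f3b was the 1 called (12.5%, against 0.675% of all genes called lower).

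Other large falls were in genes of adhesion, metabolism and signalling. Marcksl1, which encodes a membrane-bound actin regulator, had 318, 388, 282 and 706 with vehicle and 187, 140.5, 272, 145 and 169.9 with PF-303 (-1.09 ± 0.23, adjusted p = 0.025 in limma). Vehicle replicate 4 was its highest array, and without it the difference was -0.82 and not called. It was also not called without PF-303 replicate 1, 2, 4 or 5 (-1.25 to -0.82). Ephx1, the microsomal epoxide hydrolase, went from a range of 823 to 1030.2 to one of 413 to 509 (-1.02 ± 0.08, adjusted p = 8.6e-08). Pigr, the polymeric immunoglobulin receptor, went from a range of 38.9 to 54.4 to one of 11.998 to 20.6 (-0.999 ± 0.12, adjusted p = 4.1e-05). Both had narrow spreads in each group and kept their calls in every setting. Alcam, an adhesion ligand of CD6, fell by 0.88 ± 0.10 (141 to 186 against 79.3 to 90.4), and Lrmp, a lymphoid protein of the endoplasmic reticulum, by 0.85 ± 0.08 (734 to 816 against 384 to 459.9). Ahr, the ligand-activated aryl hydrocarbon receptor, was at 167 to 193 with vehicle and 82.9 to 141 with PF-303 (-0.68 ± 0.10, adjusted p = 2.9e-04). Of 13 targets of this receptor or of NRF2, Mgst1 was called, in the higher direction, and 0 were called lower. Bhlhe40, a transcriptional repressor with a part in the circadian clock, fell by 0.42 ± 0.10 (adjusted p = 0.036), the 1 called of 15 clock genes. Cdk6, a kinase of early G1 phase, fell by 0.45 ± 0.09 (adjusted p = 0.017), the 1 called of 37 cell cycle genes. These calls were 6.67% of the clock and 2.70% of the cell cycle genes. Of all genes 0.675% were called lower and 0.072% higher. The Bhlhe40 call was lost without vehicle replicates 1, 2 or 3 or PF-303 replicates 1, 2, 3 or 4 or anti-IgD vehicle replicate 1 (-0.48 to -0.36). The Cdk6 call was lost without vehicle replicates 1 or 3 or PF-303 replicates 1, 2 or 4 (-0.50 to -0.42).

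**Figure D3:**
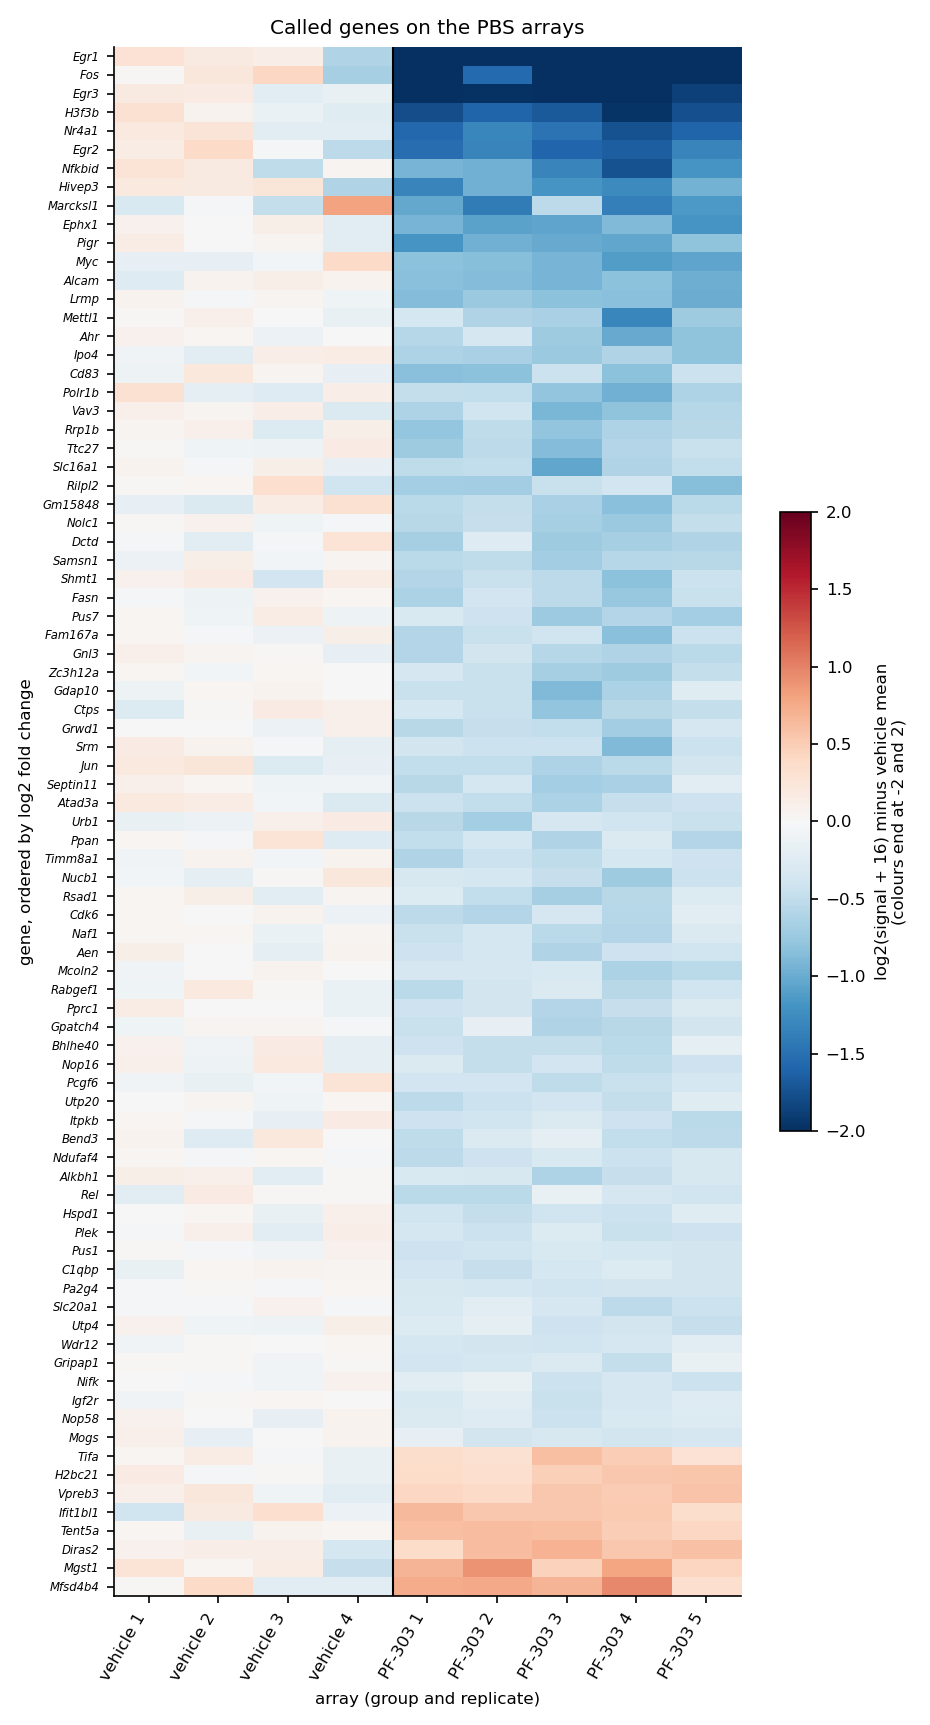
Difference of each PBS array from the vehicle mean, in log2(signal + 16), for the 83 called genes (rows, ordered by fold change) on 4 vehicle and 5 PF-303 arrays (columns, with the black line between the groups); blue is lower and red is higher. Blue fills most of the 5 PF-303 columns in the rows of the 75 falling genes, and vehicle replicate 4 departs from its group in genes such as Egr1, Fos and Hivep3 (lower) and Marcksl1 and Myc (higher).

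Myc fell, as did some genes of cell growth by smaller amounts. Myc, a transcription factor that drives ribosome production and metabolism, had 462, 457, 497 and 679.6 with vehicle and 284, 278, 265, 228 and 240.2 with PF-303, 49.5% of the vehicle mean. All PF-303 arrays were below all vehicle arrays, of which replicate 4 was the highest (-0.96 ± 0.13, adjusted p = 1.4e-04 in limma; -0.83 without that replicate). Myc was the 1 called of 13 genes of the MYC network (7.69%). Of 61 tested ribosome biogenesis genes, the longest list, 10 were called lower (16.4%) and 0 higher. Among all genes 0.675% were called lower. The 10 became 5, 5, 4, 6, 6 and 6 without vehicle replicates 1 and 4 and PF-303 replicates 4, 1, 2 and 3. They became 4 with arrays shifted to one median, with only the 9 PBS arrays or without the high spike-in arrays, 5 with the position letter as a block, and 16 with a spike-in covariate or array weights. Its median was -0.23, 59 of its 61 members had a value below 0 (against 47.3% of all genes) and 35 were lower at an unadjusted p under 0.05 (57.4%, against 5.82%). Polr1b, the second largest subunit of RNA polymerase I, went from a range of 88.8 to 140.1 to one of 48.8 to 74.5 (-0.67 ± 0.12, adjusted p = 0.0081). Rrp1b, a nucleolar processing factor, had 165, 172, 129 and 174 with vehicle and 86.5, 107, 85.4, 97.9 and 104 with PF-303 (-0.65 ± 0.11, adjusted p = 0.0022). Nolc1, a nucleolar phosphoprotein that chaperones small nucleolar particles, had 334, 347, 307 and 320.2 with vehicle and 218, 232, 199.6, 188 and 229.9 with PF-303, with each group within a narrow range (-0.58 ± 0.08, adjusted p = 2.9e-04). Gnl3, the nucleolar GTPase nucleostemin, fell by 0.53 ± 0.07 (adjusted p = 2.9e-04). These 4 kept their calls when any 1 of the 18 arrays was left out, but Polr1b lost its call with only the 9 PBS arrays and without the high spike-in arrays. The other 6 called members (Grwd1, Nop16, Nop58, Utp4, Utp20 and Wdr12, of -0.51 to -0.31) did not. The largest value on the list, -0.89 ± 0.27 for Rrp9, did not pass the test (adjusted p = 0.15).

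A list of 39 genes of MYC-linked growth metabolism had 7 called lower and 0 higher, a median of -0.24 and 34 values below 0. Over all genes 0.675% were called lower and 47.3% had values below 0. At an unadjusted p under 0.05, 23 were lower and 2 higher, where all genes gave 5.82% and 4.77%. The 7 became 4 without vehicle replicate 1 or PF-303 replicate 4, 3 with the position block or without the high spike-in arrays, 2 with the median shift and 1 with only the 9 PBS arrays, and 0 of the 7 genes were called in every setting. Slc16a1, the lactate transporter MCT1, went from a range of 196 to 241 to one of 98.9 to 153 (-0.62 ± 0.10, adjusted p = 0.0022 in limma). Fasn, fatty acid synthase, went from a range of 193 to 223 to one of 117 to 156 (-0.55 ± 0.08, adjusted p = 7.0e-04). Ctps, which makes CTP, had -0.53 ± 0.10 (adjusted p = 0.011), and Shmt1, of folate and serine metabolism, -0.56 ± 0.11 (adjusted p = 0.017). The first 3 of these were called with any 1 array left out, but Slc16a1 was not called with only the 9 PBS arrays, Fasn not without the high spike-in arrays, and Ctps not in 5 other settings. Shmt1 was not called without vehicle replicates 1, 2 or 4 or PF-303 replicate 4 (-0.69 to -0.50). Srm, spermidine synthase (-0.51 ± 0.10), Hspd1, the mitochondrial chaperonin (-0.39 ± 0.08), and C1qbp, a mitochondrial matrix protein (-0.36 ± 0.08), were the other called members. Hspd1 was the 1 called of 18 chaperone genes. Srm lost its call without vehicle replicate 1, Hspd1 without vehicle replicates 1 or 4 or PF-303 replicate 4, and C1qbp without vehicle replicates 2, 3 or 4 or PF-303 replicates 1, 2, 3, 4 or 5 or anti-IgD vehicle replicates 1, 2 or 5 (-0.57 to -0.41, -0.44 to -0.35 and -0.42 to -0.34). Slc7a5, a chain of the leucine transporter, had a larger difference of -0.89 ± 0.27 that did not pass (adjusted p = 0.15). The glucose transporter gene Slc2a1 was among the few with a value above 0 (0.29 ± 0.09, adjusted p = 0.17). Ipo4, an importin that carries ribosomal proteins and histones into the nucleus, had 288, 261, 334 and 339.9 with vehicle and 193, 189, 176, 195 and 167 with PF-303 (-0.68 ± 0.09, adjusted p = 8.6e-05). Mettl1, a tRNA methyltransferase, went from a range of 122 to 148 to one of 45.5 to 103 (-0.72 ± 0.13, adjusted p = 0.0074).

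**Figure D4:**
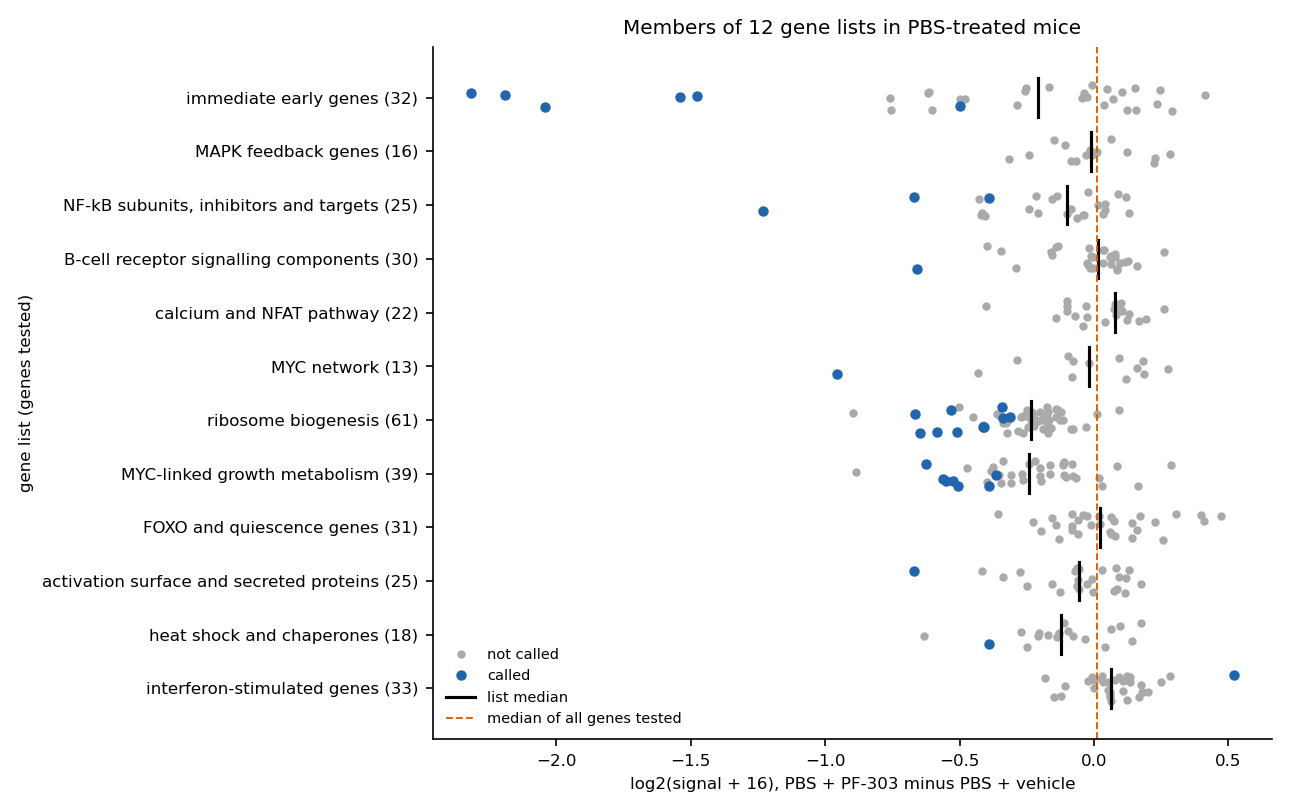
Difference between PF-303 and vehicle in PBS, in log2(signal + 16) (x axis), for the tested members of 12 gene lists (y axis, number of genes in brackets). Blue points are called genes and grey points are not, the black bar is the list median and the dashed line the median of all genes, 0.01; the medians of immediate early genes, ribosome biogenesis and growth metabolism lie at -0.21, -0.23 and -0.24.

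The start regions of the falling genes held the E-box CACGTG, the hexamer bound by MYC with its partner MAX and by other basic helix-loop-helix factors, in a larger share than those of all tested genes. The palindrome was found in 19 of the 63 falling genes with a window (30.2%), in 12% of the 9017 tested genes with one, and in 7.15% of all 32851 windows. It was also in 14 of 55 ribosome biogenesis genes with a window (25.5%), 8 of 34 growth metabolism genes (23.5%) and 6 of 27 immediate early genes (22.2%), whether or not they fell. No E-box match overlapped one of the 7 other motifs searched on both strands. Their shares were, for falling and for tested genes, 17.5% and 21.0% for the ETS motif CCGGAAG, 6.35% and 6.08% for the AP-1 motif TGANTCA, 6.35% and 6.14% for the EGR motif GCGGGGGCG, 0% and 1.44% for its form GCGTGGGCG, 3.17% and 3.6% for the cyclic AMP response element TGACGTCA, and 12.7% and 8.40% for the NF-kB motif. Among the genes lower by 2-fold or more, 8 had a window. Of these, 1 (12.5%) held the E-box and 4 (50%) the NF-kB motif. These shares are descriptions with no test, since the genes were chosen by the comparison itself. In 12 of the 19 genes a match lay before the start. The 250 bases before the start are given 5′ to 3′ for 4 of these, with the E-box in capitals: Pigr and Timm8a1, which kept their calls in every setting, and Slc16a1 and Hspd1 of the growth metabolism list.
Pigr (chr1:130826434-130826683, plus strand): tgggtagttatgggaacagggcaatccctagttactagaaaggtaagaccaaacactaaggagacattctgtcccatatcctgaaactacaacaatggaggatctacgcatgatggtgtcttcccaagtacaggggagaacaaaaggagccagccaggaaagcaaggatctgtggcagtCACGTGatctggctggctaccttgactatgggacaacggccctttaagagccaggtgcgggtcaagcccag
Timm8a1 (chrX:134541671-134541920, minus strand): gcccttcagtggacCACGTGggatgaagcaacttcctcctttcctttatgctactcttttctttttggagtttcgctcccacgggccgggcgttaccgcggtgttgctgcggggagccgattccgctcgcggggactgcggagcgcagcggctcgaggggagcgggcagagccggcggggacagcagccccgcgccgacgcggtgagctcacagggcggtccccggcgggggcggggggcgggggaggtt
Slc16a1 (chr3:104638414-104638663, plus strand): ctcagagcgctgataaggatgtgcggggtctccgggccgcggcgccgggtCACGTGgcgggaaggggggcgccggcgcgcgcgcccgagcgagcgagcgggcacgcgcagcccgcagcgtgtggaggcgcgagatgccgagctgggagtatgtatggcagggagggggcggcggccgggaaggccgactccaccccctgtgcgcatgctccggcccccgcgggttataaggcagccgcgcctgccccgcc
Hspd1 (chr1:55088244-55088493, minus strand): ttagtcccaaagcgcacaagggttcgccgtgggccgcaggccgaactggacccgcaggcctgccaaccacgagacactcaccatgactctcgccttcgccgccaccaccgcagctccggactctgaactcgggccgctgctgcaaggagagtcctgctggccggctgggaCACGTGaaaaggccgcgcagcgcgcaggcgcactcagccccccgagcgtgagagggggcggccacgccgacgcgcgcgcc
The match lies 71 bases before the start in Pigr, 80 in Hspd1, 200 in Slc16a1 and 236 in Timm8a1, counted from its first base. Timm8a1, which encodes a mitochondrial import chaperone, went from a range of 284 to 316 to one of 192 to 233 (-0.46 ± 0.08, adjusted p = 0.0029 in limma).

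On the list of the receptor pathway itself 1 gene was called, and Btk did not pass the test. Btk had 987 to 1058 with vehicle and 1020.1 to 1126 with PF-303 (0.08 ± 0.07, adjusted p = 0.73 in limma). PF-303 acts on the protein, so the RNA checks no label. Ighm, the heavy chain of IgM, ranged from 5372 to 11381 and from 4973 to 10508 in the 2 groups (-0.14 ± 0.25, adjusted p = 0.88), with its 4 highest values on the 4 arrays of high spike-in signal. Of 30 tested components of B-cell receptor signalling, 1 was called lower (3.33%, against 0.675% of all genes). This was Vav3, which went from a range of 64.4 to 92.7 to one of 36.4 to 59.0 (-0.66 ± 0.13, adjusted p = 0.0097). Of 25 activation surface and secreted proteins only Cd83 was called (4%). Cd86, the costimulatory ligand of CD28, had -0.06 ± 0.09 (adjusted p = 0.87), and Cd69, the early activation antigen, 0.18 ± 0.15 (adjusted p = 0.74). The chemokine genes Ccl3 and Ccl4 had signals of 0.88 to 17.5 and 11.7 to 32.8 with vehicle and 0.42 to 7.03 and 13.0 to 45.7 with PF-303, so that Ccl4 was low and Ccl3 mostly below the filter level. Klf2, which keeps lymphocytes quiescent, and its target S1pr1, which guides exit from lymphoid tissue, had 0.02 ± 0.12 and -0.01 ± 0.11 (adjusted p = 0.97 and 0.99), with overlapping groups. A missed threshold does not show that the groups are alike. Of the 24 pathway lists, 11 had no call, with medians from -0.08 to 0.08. With 0.675% of all genes called lower and 0.072% higher, a short list can hold no call without differing from all genes. They held 228 tested entries, where a gene on several lists counts once for each. At an unadjusted p under 0.05, 24 of the 228 entries were lower, a larger share than the 5.82% of all genes. Another 13 were higher, where all genes gave 4.77%. On the FOXO and quiescence list 5 of 31 were higher and 0 lower at that p. On the unfolded protein and integrated stress list 5 of 26 were lower and 0 higher. The 11 included the lists of MAPK feedback, calcium and NFAT, inhibitory receptors and phosphatases, FOXO and quiescence, the BCL2 family, and positioning and adhesion. The others were BAFF receptors and TRAF adaptors, B-cell transcription factors, MHC class II, unfolded protein and integrated stress responses, and glucocorticoid response. Probe sets with several gene symbols were left out of every list, and 14 of the 20 BCL2 family genes were tested. Within these 11 lists Dusp2, a MAP kinase phosphatase, had -0.31 ± 0.08 (adjusted p = 0.086), and Ddit4, an inhibitor of mTORC1, 0.47 ± 0.17 (adjusted p = 0.28).

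The 8 rises were small. Tent5a, a poly(A) polymerase, had 318, 279, 328 and 321 with vehicle and 478, 483, 478, 443 and 420.5 with PF-303, without overlap (0.54 ± 0.12, adjusted p = 0.028 in limma). Mgst1, a microsomal glutathione transferase, went from a range of 145 to 252 to one of 283 to 396 (0.65 ± 0.14, adjusted p = 0.021), with vehicle replicate 4 the lowest array. Vpreb3, a protein of the B-cell secretory pathway that binds immunoglobulin light chains, went from a range of 437 to 603 to one of 675 to 774 (0.48 ± 0.10, adjusted p = 0.025). Ifit1bl1 (0.52 ± 0.11) was the 1 called of 33 interferon-stimulated genes, whose median was 0.06. Of all genes 0.072% were called higher. Diras2, a small GTPase (0.56 ± 0.13), H2bc21, a polyadenylated histone H2B gene (0.46 ± 0.10), and Tifa, an adaptor of TRAF6 (0.41 ± 0.09), rose by similar amounts. Mfsd4b4 had the largest value (0.69 ± 0.16) at signals of 3.45 to 13.4 with vehicle and 12.3 to 27.7 with PF-303, near the filter level and with overlap. Its value was 1.61 with 1 and 0.26 with 64 added before the logarithm. None of the 8 calls held for every choice of 1 array left out. Each was lost without vehicle replicate 4 (values of 0.35 to 0.62) and without PF-303 replicate 4. Tent5a, for example, was also not called without vehicle replicates 1 or 2 or PF-303 replicates 1, 2 or 3, although its value stayed between 0.49 and 0.57.

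The same drug comparison in the stimulated groups, which shares no array with the one in PBS, had 1150 genes lower (10.4% of those tested) and 2202 higher (19.8%). Of the 75 genes that fell in PBS, 65 also fell there (86.7% of the 75 and 5.65% of the 1150). The number of falling genes changes with the setting too. The count was 38 of 42 without vehicle replicate 1 in PBS and 38 of 42 without PF-303 replicate 4 in PBS. It was 30 of 33 with the median shift, 30 of 39 with the position block and 42 of 44 without the high spike-in arrays. A spike-in covariate gave 104 of 126 and array weights 126 of 153. Of the 75 genes, 73 had a value below 0 with anti-IgD, and their median moved from -0.51 in PBS to -0.73. Of the 8 that rose in PBS, 7 also rose (0.318% of the 2202), Mfsd4b4 being the exception. Genes that fell in both include Nr4a1 (-1.54 in PBS and -1.25 with anti-IgD), Egr2 (-1.48 and -1.80), Hivep3 (-1.14 and -1.22), Fasn (-0.55 and -0.55) and Ahr (-0.68 and -0.79). For these the difference between the effects was not called. Those not called with anti-IgD were Egr3, Cd83, C1qbp, Septin11, Nucb1, Fam167a, Itpkb, Bhlhe40 and Igf2r, with values there of -0.36 to 0.05. Jun went the other way, -0.50 in PBS and 0.46 with anti-IgD. With vehicle, the 75 genes' median difference between anti-IgD and PBS was 1.501 on the log2 scale, and the 8 rising genes lay at -1.69 to -0.34, where 17.4% of all genes were called higher and 30.6% lower. These values use the same PBS vehicle arrays as the drug comparison and are set beside it only.

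The test of the difference between the 2 drug effects (interaction) called 1086 genes (9.78%), with values above 0 for 6.66% of all genes and below 0 for 3.12%. In all, 29 of the 83 genes called in PBS were among them. For 7 of the 75 falling genes the effect was smaller or reversed with anti-IgD. Egr1 fell from 611 ± 153 (SD, n = 4) to 108 ± 19.0 (n = 5) in PBS. With anti-IgD it was 4668 ± 207 (n = 4) with vehicle and 3506 ± 697 (n = 5) with PF-303, a difference between the effects of 1.88 ± 0.22 (adjusted p = 2.2e-05 in limma). Egr3 had 4294 ± 746 and 3363 ± 675 with anti-IgD, where the groups overlapped, and an interaction of 1.68 ± 0.20 (adjusted p = 2.3e-05). The interactions of Ephx1 and Jun were 0.77 ± 0.12 and 0.96 ± 0.15. The third EGR gene, Egr2, had 2599 ± 321 with anti-IgD and vehicle and 733 ± 67.5 with anti-IgD and PF-303, with an interaction of -0.32 ± 0.19 that was not called (adjusted p = 0.32). The fall was larger with anti-IgD for 21 of the 75 genes. Bend3, a transcriptional repressor, fell by 0.40 ± 0.09 in PBS (71.0 to 104 against 56.6 to 74.9, with overlap) and by 1.72 ± 0.09 with anti-IgD (669 to 755 against 188 to 225), an interaction of -1.31 ± 0.13 (adjusted p = 5.5e-06). For Nfkbid, Rel, Gdap10, Slc16a1 and Myc the interactions were -0.98, -0.95, -0.89, -0.79 and -0.69. With the position letter as a block, 291 genes were called for interaction, and 10 of the 29 held in every setting tried: Egr1, Egr3, Ephx1 and Jun with the smaller or reversed effect, and Bend3, Nifk, Nop16, Pus7, Rel and Rilpl2 with the larger fall.

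**Figure D5:**
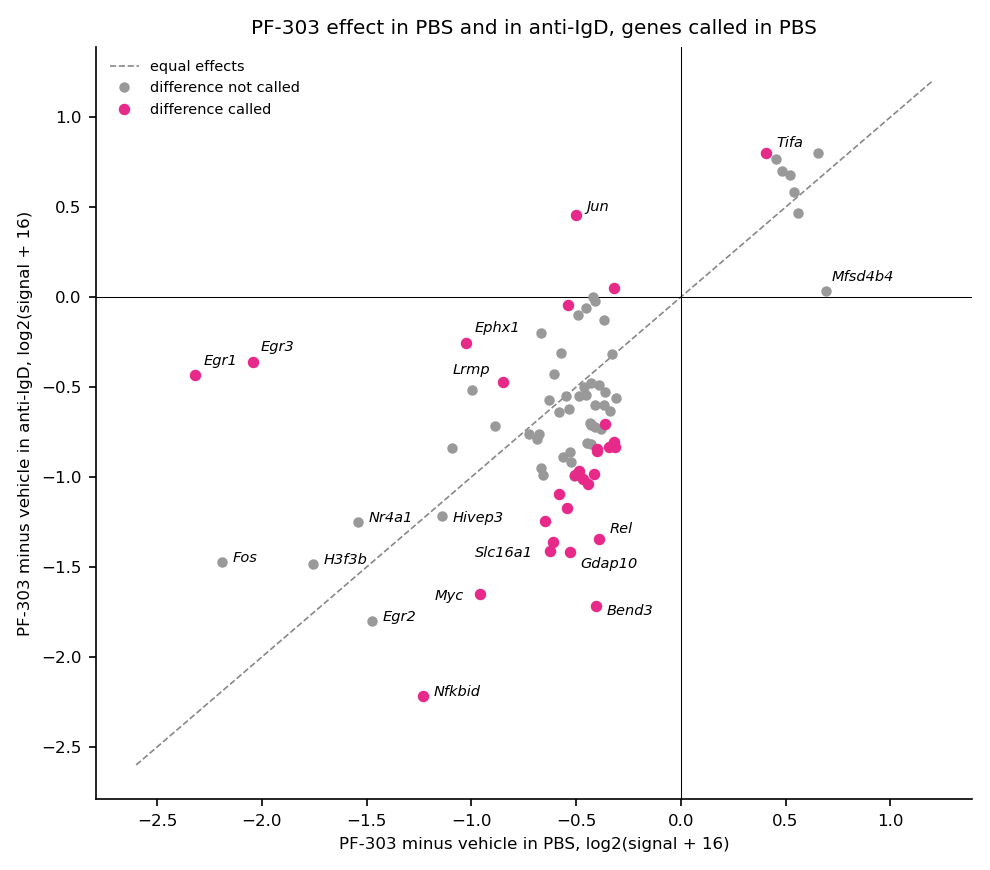
PF-303 effect in PBS (x axis) and with anti-IgD (y axis), both as PF-303 minus vehicle in log2(signal + 16), for the 83 genes called in PBS. Pink points are the 29 genes whose 2 effects differ in the interaction test and grey points the rest; Egr1 and Egr3 lie above the dashed line of equal effects, at -0.43 and -0.36 with anti-IgD, and Nfkbid, Myc and Bend3 lie below it.

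Other probe sets of the falling genes bore on the same comparison. Fitted separately, 20836 probe sets with 1 gene symbol each gave 111 lower and 9 higher calls. The 5 probe sets that H3f3b shares with other H3.3 copies, at -0.02 to 0.04, were not among them. Of the 75 genes 36 had more than 1 probe set tested, and of their 64 other probe sets 59 had values below 0 and 18 were called. Among the 43 of these with a mean signal above 50 with vehicle, 43 were below 0 and 16 were called. These probe sets belong to genes chosen for falling on the same arrays, so their direction is not an independent check. Marcksl1, for example, had a second probe set at -1.13 ± 0.18 (adjusted p = 0.0026 over probe sets in limma) beside -1.09 at the one used, while 2 further ones gave -0.53 and -0.37 and were not called.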

How the data were processed

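The deposited values were MAS5 intensity signals of Affymetrix Mouse Genome 430 2.0 arrays on a linear scale, 1 column per sample (18 arrays; 150 ng of total RNA each, per the labels). The authors made them with MAS5, per the submitters' processing notes; its version and settings are not given in the sources used here. The 2%-trimmed mean was the same on every array, so the values are relative within an array; the number of arrays limits the precision. Of 45101 probe sets, 34945 had 1 gene symbol, 932 several and 9160 none, and 64 were controls; 204 symbols had no match in RefSeq GRCm38.p6. Values were taken as log2(signal + 16). Probe sets above 15.2 (the median of all values) on at least 4 arrays were kept, and the one with the highest mean stood for a gene, leaving 11104 genes. The 4 group means were fitted with limma 3.58.1 (lmFit, eBayes with trend) in R 4.3.3, with Benjamini-Hochberg adjustment over all genes and calls at 0.05; the code was tested on simulated data. Differences are on that log2 scale, which understates changes of low signals.

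The members, gene lists and rules were chosen with earlier results of these data known. Genes named were the 20 lowest and 10 highest called, up to 4 called per list, the 8 largest interactions among genes called in PBS, and 20 fixed genes; others named were chosen after their values were seen. Alternatives changed the offset, filter, scaling, probe set rule, blocks, array weights and arrays included. Promoter windows and their letters are RefSeq's.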

Additional observations from a re-analysis of the deposited data

Results flagged for a closer look

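On 7 of 106 gene and group combinations examined, 1 array's signal lay far from the others of its group; chance gives about 1 in 20. With vehicle these were Alcam on replicate 1 (140.6, others 180.3 to 186.1), Diras2 on replicate 4 (42.17, others 62.9 to 66.05) and Hivep3 on replicate 4 (137.8, others 247 to 258.7). With PF-303 they were Ccl3 on replicate 1 (7.035, others 0.42 to 0.82, all below the filter level), Gnl3 on replicate 2 (379.8, others 318.3 to 334), S1pr1 on replicate 4 (466.4, others 576.8 to 617.3) and Slc16a1 on replicate 3 (98.89, others 139.6 to 152.6).

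For 14 named genes the PF-303 effect differed between anti-IgD and PBS by the interaction test in limma, given here as the effect with anti-IgD minus the effect in PBS on the log2 scale. The difference was below 0 for Bend3 (-1.315), Nfkbid (-0.9848), Rel (-0.952), Gdap10 (-0.8877), Slc16a1 (-0.7855), Myc (-0.6905), Rrp1b (-0.5962) and Nolc1 (-0.5103). It was above 0 for Lrmp (0.3768), Tifa (0.3959), Ephx1 (0.7694), Jun (0.957), Egr3 (1.684) and Egr1 (1.884).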

How the results depend on the processing

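No called gene changed sign in any of 33 settings, and 20 kept their call in all of them; the cause of the changes in counts was not tested. The count of 75 falling genes was 33 with arrays shifted to one median, 39 with the position letter as a block, 126 with a spike-in covariate, 44 without arrays high in spike-in signal, 27 with only the 9 PBS arrays and 153 with array quality weights (chosen after seeing the data); leaving out 1 array gave 42 to 92. The count of 8 rising genes was, in the same order, 2, 3, 29, 2, 1 and 43; it was 13 with an offset of 64, 15 with a filter at 50, 16 after quantile normalization, 15 with the mean of probe sets, and 0 to 16 with 1 array left out. The 10 falls of 2-fold or more were 6 with an offset of 64 and 9 to 11 with 1 array left out. The 1086 interaction genes were 715 with the median shift, 291 with the position block, 715 without arrays high in spike-in signal and 785 to 1160 with 1 array left out. The replicate block gave 96 falling and 20 rising genes; same-numbered arrays correlated at 0.0942, 0.194, 0.175 and 0.0348 in their deviations, so the numbers were not taken as a pairing. Genes that changed sign had not passed the test: Ccl4 (-0.44 without the high spike-in arrays, -0.18 with weights, -0.040 to 0.25 with 1 array left out), Fcer2a (0.027 with the mean of probe sets, 0.026 without the high spike-in arrays, 0.0089 with weights, -0.13 to 0.0051), Ighm (0.13 with the mean of probe sets, 0.050 with weights, -0.30 to 0.056), Klf2 (-0.011 after quantile normalization, -0.012 with the position block, -0.0011 without the high spike-in arrays, -0.036 to 0.080), Nfkbia (0.043 with weights, -0.11 to 0.041) and S1pr1 (0.0084 with the median shift, 0.0082 with the replicate block, 0.18 without the high spike-in arrays, 0.051 with weights, -0.10 to 0.077). Signals near the filter level, as for Egr2 and Mfsd4b4, limit the size of a fold change.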

Other observations

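Some differences were large but varied too much between arrays to pass the test; these genes were chosen after their values were seen. Serpinb2, a plasminogen activator inhibitor of myeloid cells, had signals of 163 ± 106 (SD, n = 4) with vehicle and 32.5 ± 41.6 (n = 5) with PF-303, a log2 difference of -1.94 ± 0.60 (adjusted p = 0.17 in limma). Cxcl2, a neutrophil-attracting chemokine, had 90.0 ± 63.6 and 13.8 ± 14.8 (-1.72 ± 0.57, adjusted p = 0.22 in limma). Cxcl13, the chemokine of B-cell follicles, had 158 ± 74.3 and 40.6 ± 16.5 without overlap (-1.57 ± 0.49, adjusted p = 0.17 in limma). Saa3, an acute-phase protein, had 519 ± 234 and 209 ± 169.9 (-1.40 ± 0.62, adjusted p = 0.41 in limma).

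Of 4110 tested probe sets with no gene symbol or with several, 23 fell (0.559%) and 1 rose with PF-303 in PBS. Of the 23, 18 also fell with PF-303 after anti-IgD. The probe sets with none and with several were not counted separately.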
